A study of Mus musculus with 8 samples.

Results

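The primary cilium is a single antenna-like organelle built on a basal body. Its core of microtubules is assembled and maintained by intraflagellar transport (IFT), in which trains of IFT-B and IFT-A proteins are carried outwards by kinesin-2 and back by cytoplasmic dynein-2. A transition zone at its base and the BBSome, a coat that moves membrane proteins, set which proteins stay inside. In vertebrates hedgehog signals are transduced through this organelle, and the notochord is the classical source of sonic hedgehog for its neighbours.

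A set of 44 genes for cilium transport and the transition zone was followed through the notochord to nucleus pulposus (NP) transformation. The rule was a list of gene symbols grouped by function, and all 44 were found among the 43346 gene identifiers counted. It held 10 IFT-B genes, 3 IFT-A genes, 6 motor genes, 8 BBSome or BBSome chaperonin genes, 10 transition zone genes, 5 genes for ciliary membrane GTPases and trafficking, and 2 genes of the EvC zone. All 44 passed the filter on low counts, so all were among the 15467 genes tested.

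The libraries came from notochord-derived cells (NDCs) of mice that carried Shh-cre;ROSA:YFP, with 4 litters at embryonic day 12.5 (E12.5: NDP10.2, NPD3, NPD4 and NPD9.2) and 4 at postnatal day 0 (P0: NPD26, NPD27, NPD28 and NPD30). Both stages carried the same alleles: Cre expressed from Shh switches on YFP in Shh-expressing cells and in all of their descendants, no group was mutant or treated, and the animals of 1 litter were pooled for each library. At E12.5 whole notochords were dissected straight into lysis reagent, whereas P0 NP cells were shaken loose and YFP-positive cells were sorted, so stage and isolation cannot be told apart. From 4442775 to 8904050 reads per library fell on genes, and members were covered by 6 to 880 reads in a library.

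The cell identity labels were checked against markers. The notochord genes T, Foxa1, Foxa2, Krt8, Krt18, Krt19 and Cd24a were detected in all 8 litters. Noto was at or near 0 in all of them (at most 0.43 CPM, read counts scaled to a common library size). Shh, the gene that drives the Cre, ranged from 420.3 to 1348 CPM in the E12.5 litters but from 0.16 to 11.8 CPM in the P0 litters. The 8 notochord genes tested went both ways (edgeR quasi-likelihood F-test, adjusted p under 0.05). Shh and Foxa1 were significantly lower at P0, with log2 fold changes of -7.14 and -2.23. Krt19 and Cd24a were significantly higher, with 1.74 and 1.33. The other 4 (T, Foxa2, Krt8 and Krt18) did not pass. All 14 leukocyte markers were higher at P0, with a summed level of 72.6 to 156 CPM in the E12.5 litters and 890 to 8250 CPM in the P0 litters, and no leukocyte marker was at 0 in any P0 litter. Osteoblast markers were higher at P0 in 5 of 6 tested (summed level 289 to 1432 CPM and then 3913 to 13334 CPM). All 7 sclerotome markers, 6 of 9 erythroid markers and 4 of 5 skeletal muscle markers tested were lower at P0. The part of these cell type markers in the results below was not tested, and in such bulk samples fewer cells of a type and less RNA per cell cannot be told apart.

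Messenger RNA abundance of the cilium genes differed little between the stages. Only Kif7, a kinesin-family protein of the cilium tip that acts in hedgehog signaling, had significantly lower abundance at P0, and no member had significantly higher abundance (edgeR quasi-likelihood F-test, Benjamini-Hochberg adjusted p under 0.05 over all 15467 tested genes). That is 1 of 44 members, or 2.27%, whereas 27.9% of all tested genes passed the same test, 12.0% of them lower and 16.0% higher at P0. Among the 10158 genes whose mean CPM lay in the range of the members (5.67 to 78.6 CPM), 29.1% passed. At an unadjusted p under 0.05 the test picked 6 members as lower and 1 as higher, 15.9% of the set against 39.7% of all tested genes.

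The size of the changes gave the same picture. The median of the members' absolute log2 fold changes (P0 relative to E12.5) was 0.30, compared with 0.61 over all tested genes and 0.56 over genes in the same range of mean CPM. Standard errors were alike, with a median of 0.32 for the members and 0.33 for genes in that range. The 95% interval of the log2 fold change stayed inside -1 to 1, that is within a 2-fold change in either direction, for 21 of 44 members (47.7%) and for 31.4% of genes in that range. The intervals of the other 23 members reached past a 2-fold change at this depth and number of litters. Signed values leaned slightly downwards, with 27 members below 0, 17 above 0 and a median of -0.19, compared with 0.04 over all tested genes.

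**Figure D1:**
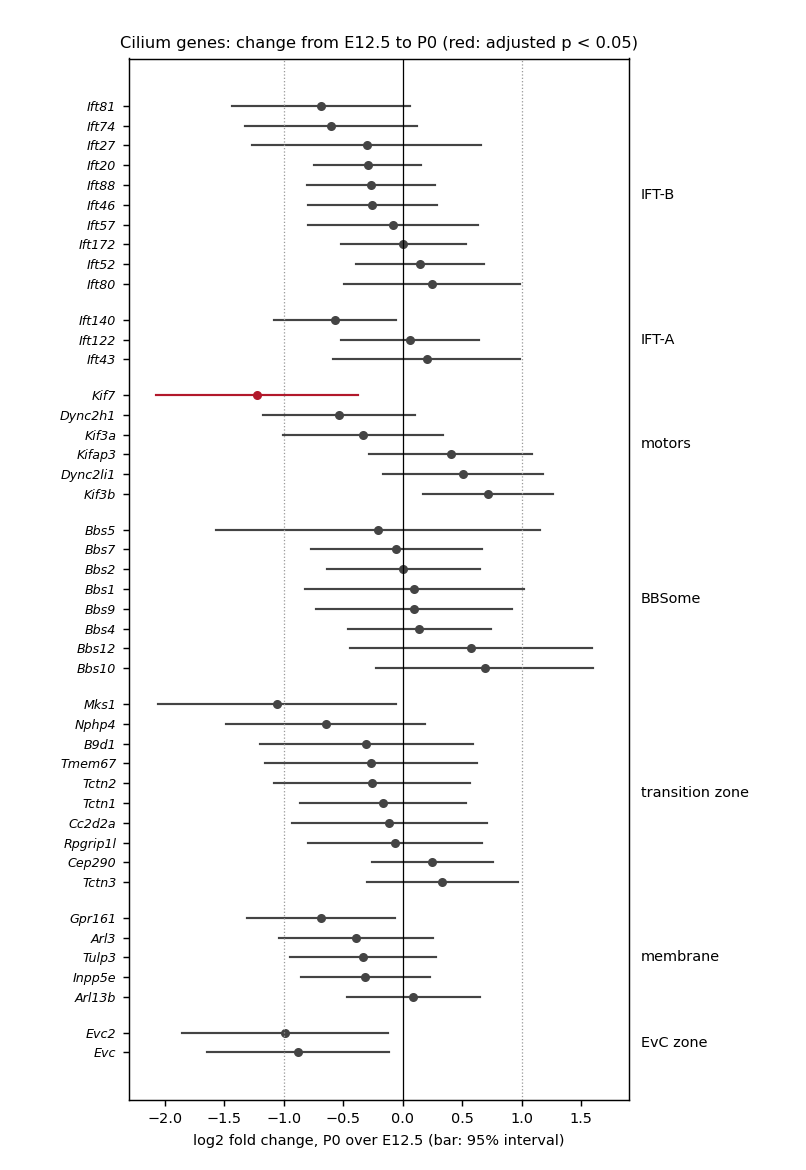
Log2 fold change of each of the 44 cilium genes (horizontal axis, P0 over E12.5), grouped by role, with points for the estimate, bars for the 95% interval and dotted lines at -1 and 1. Kif7, in red, is the only gene with an adjusted p under 0.05, and 21 intervals lie wholly between the dotted lines.

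**Figure D2:**
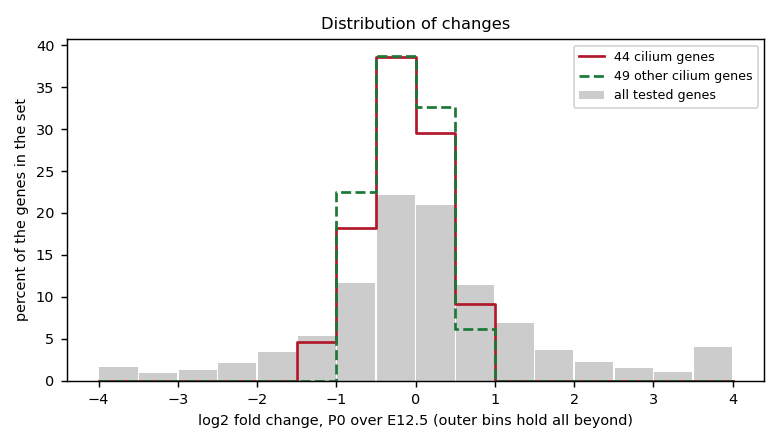
Percent of genes (vertical axis) in each log2 fold change bin 0.5 wide (horizontal axis) for all 15467 tested genes (grey bars), the 44 cilium genes (solid line) and 49 other cilium genes (dashed line). The outer bins also hold all values beyond them, and no cilium gene of either set lies beyond -1.5 or 1.

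The IFT-B genes encode the train that carries tubulin and other cargo towards the tip. None of the 10 differed significantly, also none at an unadjusted p under 0.05, and 7 of the 10 intervals stayed within a 2-fold change. Ift20, which also works at the Golgi, had the highest level per kilobase of exon in the whole set, at 35.4 CPM per kb at E12.5 and 28.9 CPM per kb at P0. Taking litters always in the order given above, it reached 55.7, 49.2, 51.0 and 59.8 CPM at E12.5 and 52.8, 43.8, 42.3 and 37.1 CPM at P0. The groups overlapped, and the log2 fold change was -0.29 (95% interval -0.74 to 0.16, adjusted p = 0.321).

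Ift172, a large scaffold protein of the same complex, was nearly level, with a log2 fold change of 0.01 (95% interval -0.52 to 0.53). Ift81 and Ift74, which together form a tubulin-binding module, had the lowest values, -0.69 (adjusted p = 0.158) and -0.60 (adjusted p = 0.2). Log2 fold changes were -0.30 for Ift27, -0.27 for Ift88, -0.25 for Ift46, -0.08 for Ift57, 0.15 for Ift52 and 0.25 for Ift80. Ift27, a small GTPase of the train, was uneven at P0, with 29.4 CPM in NPD26 but 7.07, 8.01 and 10.5 CPM in the others. Without NPD26 its log2 fold change was -0.98 (adjusted p = 0.046). Ift81 in turn passed without NPD30 (log2 fold change -0.997, adjusted p = 0.0485).

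IFT-A is the complex that returns cargo and admits G protein-coupled receptors to the cilium. Ift140, one of its core subunits, had 34.9, 29.3, 23.3 and 27.3 CPM at E12.5 and 18.4, 22.5, 19.5 and 16.8 CPM at P0. Every P0 litter lay below every E12.5 litter, yet the highest P0 litter was close to the lowest E12.5 litter. The difference did not pass after adjustment (log2 fold change -0.57, SE 0.23, adjusted p = 0.0918). Ift43, the member of this group with the highest level per kilobase, ranged from 10.3 to 22.1 CPM at E12.5 and from 12.4 to 31.4 CPM at P0 (log2 fold change 0.20). Ift122, another core subunit, was nearly level at 16.8 ± 1.48 CPM (SD, n = 4) at E12.5 and 17.5 ± 4.19 CPM (SD, n = 4) at P0.

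The motor genes lay on both sides of 0. Kif7 had 13.0, 7.22, 9.31 and 12.5 CPM at E12.5, from 37 to 77 reads, and 2.67, 5.77, 4.00 and 5.46 CPM at P0, from 17 to 40 reads. All P0 litters lay below all E12.5 litters, with means of 10.5 ± 2.74 CPM and 4.48 ± 1.43 CPM (SD, n = 4 each), a 2.34-fold lower abundance at P0 (log2 fold change -1.22, SE 0.39, 95% interval -2.07 to -0.38, adjusted p = 0.0355). The call was near the threshold. The adjusted p rose to 0.0709 without NDP10.2, 0.0788 without NPD9.2, 0.0912 without NPD26 and 0.0763 without NPD28, while the log2 fold change stayed between -1.41 and -0.89 in all 19 alternative fits. Kif7 lies on the minus strand at chr7:79698098-79715720 (GRCm38), and 19.1% of its exon bases are shared with the antisense gene 9330171B17Rik and 1.11% with Ticrr on the opposite strand. The strand setting of the counting is not given in the sources used here, so reads from those stretches cannot be told apart.

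The 3 kinesin-2 subunits had log2 fold changes of both signs. Kif3b, a motor subunit, was the only member with all P0 litters above all E12.5 litters, at 23.4, 21.5, 36.4 and 23.9 CPM and then 44.4, 37.2, 53.8 and 37.5 CPM. Its difference fell just short of the threshold (log2 fold change 0.71, SE 0.25, adjusted p = 0.0528). It passed without NPD4, its highest E12.5 litter (log2 fold change 0.91, adjusted p = 0.0213). Its partner Kif3a had a log2 fold change of -0.33 and the linker subunit Kifap3, the motor gene with the highest level per kilobase over both stages together, one of 0.40. At E12.5 alone Kif3a was higher per kilobase (17.2 against 16.8 CPM per kb for Kifap3), and at P0 Kifap3 was (22.3 against 13.7 CPM per kb). Kifap3 ranged from 42.9 to 106 CPM at E12.5 and from 67.8 to 124 CPM at P0, and all 3 subunits had their highest E12.5 level in NPD4. NPD4 was also the E12.5 litter with the highest summed level of 9 neural tube markers (1586 CPM, compared with 83.7 to 139 CPM in the others). That sum was mostly the neuronal genes Stmn2 (689 CPM), Tubb3 (576 CPM) and Elavl3 (289 CPM), whereas the progenitor marker Pax6 was lowest of the E12.5 litters in NPD4 (1.57 CPM). The part of these genes in the kinesin values was not tested. Of the dynein-2 genes, the heavy chain Dync2h1 was at -0.54 on the log2 scale (adjusted p = 0.196) and the light intermediate chain Dync2li1 at 0.51 (adjusted p = 0.243).

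**Figure D3:**
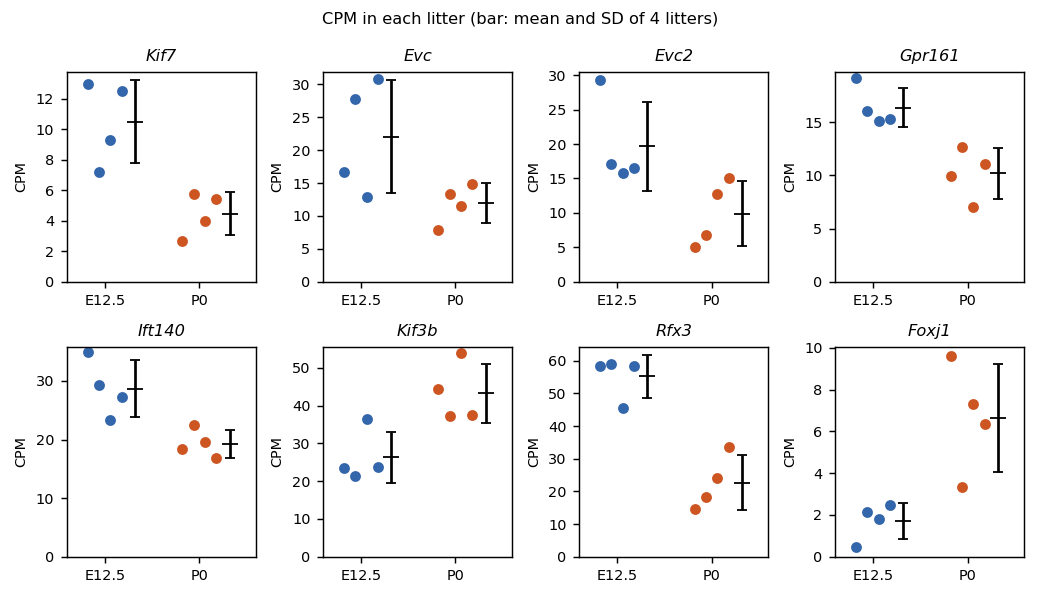
CPM (vertical axes, from 0) of 6 cilium genes and the factors Rfx3 and Foxj1 in each E12.5 litter (blue) and each P0 litter (orange), with black marks for the mean and SD of 4 litters. The P0 litters of Kif7, Evc2, Gpr161, Ift140 and Rfx3 lie below the E12.5 litters, those of Kif3b and Foxj1 lie above them, and Evc overlaps between the stages.

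The BBSome carries signaling receptors out of the cilium, and Bbs10 and Bbs12 help fold it. None of the 8 genes differed significantly, also none at an unadjusted p under 0.05, and 6 of the 8 log2 fold changes were above 0. Bbs9, with the highest level per kilobase of this group, had 30.4, 27.3, 21.5 and 22.4 CPM at E12.5 and 17.8, 14.1, 26.5 and 50.3 CPM at P0, a mean change of 0.10 on the log2 scale that hid a wide spread at P0. The core subunit Bbs2 was at 13.3 ± 1.45 CPM and 13.4 ± 4.01 CPM (SD, n = 4 each), a log2 fold change of 0.01 (95% interval -0.63 to 0.65). The others were -0.21 for Bbs5, -0.05 for Bbs7, 0.10 for Bbs1 and 0.14 for Bbs4. Bbs10 and Bbs12, the chaperonin-like genes, had the highest values, 0.69 (adjusted p = 0.248) and 0.57 (adjusted p = 0.392), and each had its highest level of all 8 litters in NPD30 (19.1 CPM and 15.0 CPM). Bbs5 was the least well measured member, with 6 reads in NPD9.2 and an interval of -1.57 to 1.16.

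The transition zone genes encode the gate between the ciliary base and shaft. None of the 10 differed significantly (1 at an unadjusted p under 0.05, Mks1), and the intervals of 5 stayed within a 2-fold change. Cep290, which links microtubules to the membrane, was measured best, at 31.5 ± 4.22 CPM and 37.5 ± 7.78 CPM (SD, n = 4 each, log2 fold change 0.25, 95% interval -0.26 to 0.76). Mks1, a B9-domain protein of the gate, had the lowest value of this group, with 18.9, 11.9, 9.07 and 8.36 CPM at E12.5 and 4.09, 3.03, 5.53 and 10.5 CPM at P0. The groups overlapped because of NPD30 (log2 fold change -1.06, adjusted p = 0.107), and without that litter the value was -1.54 (adjusted p = 0.0245). Its relative B9d1, the gene of this group with the highest level per kilobase, ranged from 6.89 to 13.5 CPM and from 5.34 to 14.4 CPM (log2 fold change -0.30). Values were -0.65 for Nphp4, -0.27 for Tmem67, -0.26 for Tctn2, -0.16 for Tctn1, -0.11 for Cc2d2a, -0.06 for Rpgrip1l and 0.33 for Tctn3. Tctn1 shares 19% of its exon bases with Hvcn1 on the opposite strand.

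Of the membrane GTPase and trafficking genes, none of 5 differed significantly (1 at an unadjusted p under 0.05, Gpr161). Gpr161, an orphan receptor that restrains hedgehog signaling from within the cilium, had 19.1, 16.0, 15.1 and 15.3 CPM at E12.5 and 9.91, 12.7, 7.06 and 11.1 CPM at P0. The groups did not overlap, but the difference did not pass after adjustment (log2 fold change -0.68, SE 0.28, adjusted p = 0.0953) and passed in none of 19 alternative fits. For Tulp3, the adaptor that brings Gpr161 into the cilium, the log2 fold change was -0.33 (95% interval -0.95 to 0.28). Arl3, a GTPase that releases lipidated cargo and the gene of this group with the highest level per kilobase, ranged from 23.8 to 44.3 CPM at E12.5 and from 18.6 to 39.6 CPM at P0 (log2 fold change -0.39). Arl13b, the GTPase that activates Arl3, stayed at 29.9 ± 9.13 CPM and 31.9 ± 2.42 CPM (SD, n = 4 each, log2 fold change 0.09, 95% interval -0.47 to 0.65). The phosphoinositide phosphatase Inpp5e had a value of -0.31, and 20.3% of its exon bases are shared with Pmpca on the opposite strand. Besides Inpp5e, Kif7 and Tctn1, a further 6 members shared between 1.31% and 7.86% of their exon bases with another gene.

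Evc and Evc2 encode partner proteins that sit just above the transition zone and pass the hedgehog signal on from Smoothened. Evc2 had 29.3, 17.2, 15.7 and 16.5 CPM at E12.5 and 5.03, 6.78, 12.7 and 15.0 CPM at P0. All P0 litters were below all E12.5 litters, but NPD30 was nearly level with NPD4 (log2 fold change -0.99, SE 0.39, adjusted p = 0.0849). Evc had 16.8, 27.7, 12.8 and 30.7 CPM and then 7.86, 13.4, 11.5 and 14.9 CPM, so that its groups overlapped (log2 fold change -0.88, SE 0.35, adjusted p = 0.082). Evc2 passed without NPD30 (log2 fold change -1.29, adjusted p = 0.0332), and Evc passed without NPD4 (log2 fold change -1.08, adjusted p = 0.0346). These genes are neighbours on chromosome 5 (chr5:37289098-37336894 and chr5:37338499-37425055, GRCm38).

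Counted over all roles, 4 of 44 members (Ift140, Kif7, Gpr161 and Evc2) had every P0 litter below every E12.5 litter. The same held for 14.4% of all tested genes. In 1 of 44 members (Kif3b) every P0 litter lay above every E12.5 litter, which held for 15.5% of all tested genes. The other 39 members overlapped between the stages. All litters of both stages had reads for the whole set, and no member was at 0 in any of them.

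The litters of one stage differed among themselves, and at P0 the spread had a common direction. NPD30 had the highest level of the P0 litters for 30 of 44 members (68.2%), whereas it was the highest for 26.6% of all tested genes. Across the members the median log2 CPM came to 4.43, 4.52, 4.30 and 4.23 for the litters at E12.5, then 4.20 for NPD26, 3.82 for NPD27, 4.07 for NPD28 and 4.66 for NPD30. NPD30 therefore lay above all E12.5 litters, and the remaining P0 litters lay below them. NPD30 was also the P0 litter with the lowest summed level of the 14 leukocyte genes (890 CPM, compared with 4371, 5286 and 8250 CPM) and the highest summed level of the 9 notochord genes (6935 CPM, compared with 3339, 1969 and 3796 CPM). The lower leukocyte sum did not hold for every gene, since S100a8 and S100a9 (198 and 292 CPM in NPD30) were above their levels in NPD26 and NPD27. NPD30 also had the highest osteoblast sum (13334 CPM, compared with 3913, 8065 and 7729 CPM) and the highest chondrocyte sum of the P0 litters (4232 CPM, compared with 1364, 1124 and 3782 CPM). The part of any of these in the cilium gene values was not tested.

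Results for the set were therefore also taken without that litter and with it as the lone P0 litter. Without NPD30, 4 of 44 members were significantly lower at P0 (Kif7, Ift81, Mks1 and Evc2), while 28.1% of all tested genes passed in either direction. The median log2 fold change of the members was then -0.39. With NPD30 as the only P0 litter, assumed to vary as the E12.5 litters did, the median was 0.20. NPD30 was singled out by its high level of the members, so the direction of both shifts followed from that choice. These fits give the size of the shifts and no separate evidence. The log2 fold change of Kif7 was negative in both. It was -1.37 (adjusted p = 0.0408) without NPD30 and -0.89 with NPD30 as the only P0 litter.

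**Figure D4:**
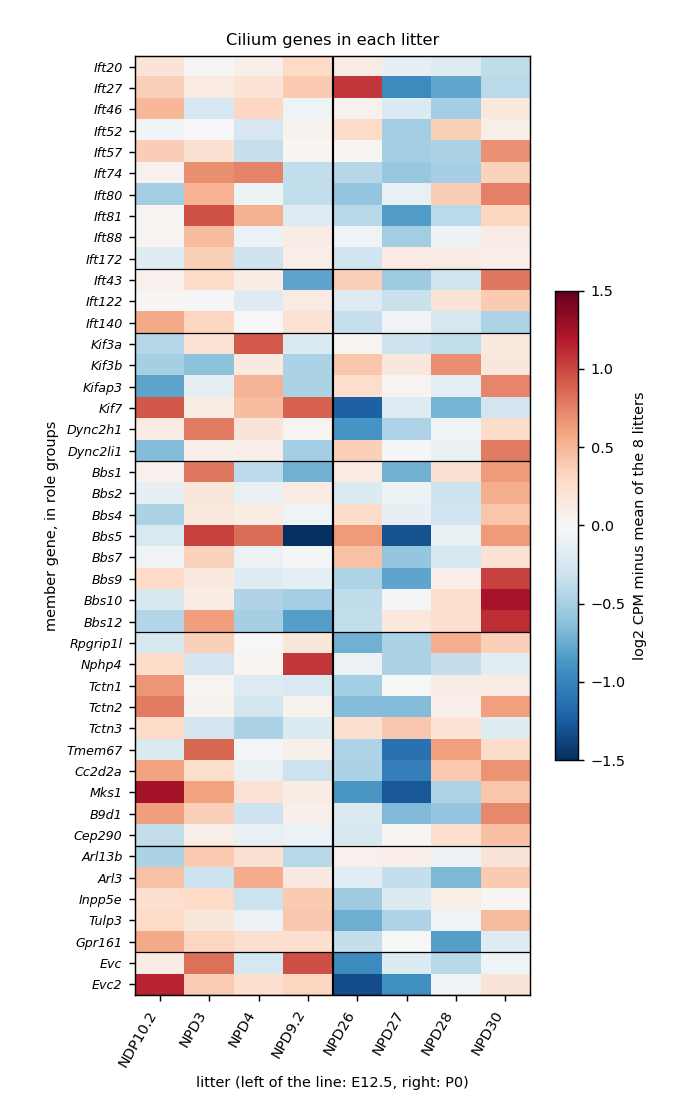
Log2 CPM of each cilium gene in each litter minus the gene's mean over 8 litters (color, red higher and blue lower), with E12.5 litters left of the vertical line and P0 litters right of it, and role groups parted by horizontal lines. The column of NPD30 is redder than the other P0 columns for most genes, 30 of 44 being highest there.

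**Figure D5:**
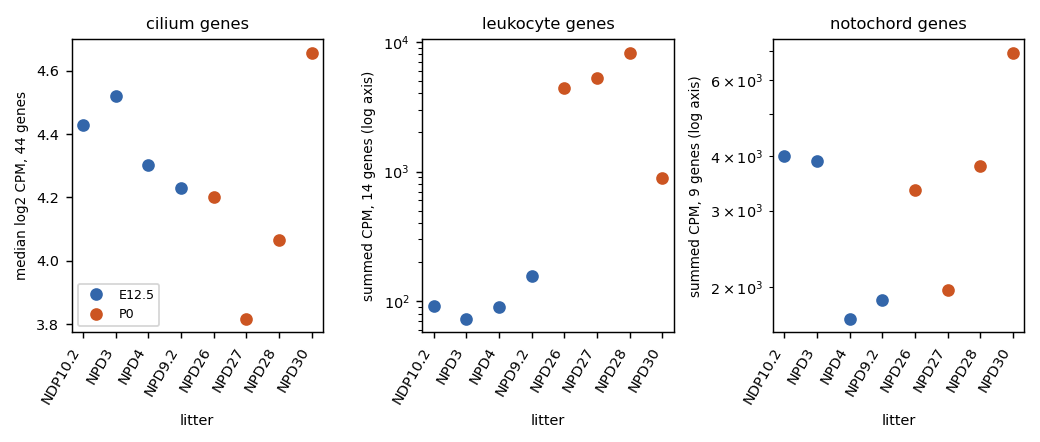
For each litter, the median log2 CPM of the 44 cilium genes (left, linear axis) and the summed CPM of 14 leukocyte genes and of 9 notochord genes (middle and right, log axes), with E12.5 litters in blue and P0 litters in orange. NPD30 has the highest cilium median (4.66), the lowest leukocyte sum of the P0 litters (890 CPM) and the highest notochord sum (6935 CPM).

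A further 50 genes of the same organelle gave similar values. Of the 49 that passed the filter (Kif17 did not), 1 (2.04%) was significantly lower at P0 and none was higher. Among all tested genes 12.0% were lower and 16.0% higher. The intervals of 23 of the 49 (46.9%) stayed within a 2-fold change, compared with 31.4% of genes in the members' range of mean CPM. The median log2 fold change of the 49 was -0.17. The lower one was Ccp110, a centriole cap protein that holds back cilium formation, at 48.1, 45.5, 48.1 and 48.2 CPM and then 23.1, 31.0, 28.6 and 33.8 CPM (log2 fold change -0.70, SE 0.21, adjusted p = 0.0258). Its adjusted p was 0.0757 without NPD26, 0.0575 without NPD27 and 0.0502 without NPD28.

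Of 7 regulatory factor genes tested, 1 was significantly lower and 1 significantly higher at P0, a share of 28.6% that is near the 27.9% of all tested genes. Rfx3, a factor that activates many genes of primary and motile cilia, had 58.5, 58.9, 45.5 and 58.3 CPM at E12.5 and 14.6, 18.2, 24.3 and 33.7 CPM at P0, with no overlap (log2 fold change -1.28, SE 0.28, adjusted p = 0.0061). It passed with each litter left out in turn, but not with NPD30 as the only P0 litter (log2 fold change -0.67, adjusted p = 0.36). Foxj1, the factor for motile cilia, had 0.47, 2.15, 1.81 and 2.46 CPM and then 9.59, 3.32, 7.30 and 6.37 CPM (log2 fold change 1.93, SE 0.55, adjusted p = 0.0234). Its adjusted p was 0.0501 without NPD3, 0.0711 without NPD26 and 0.0502 without NPD28. Rfx4 fell just short of the threshold (log2 fold change -1.82, SE 0.63, adjusted p = 0.0512). Every P0 litter of Rfx4 lay below every E12.5 litter, at 31 to 48 reads at E12.5 and 5 to 25 reads at P0. Rfx1, Rfx2, Rfx5 and Rfx7 did not pass the test either, and Rfx6 and Rfx8 did not pass the filter on low counts.

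The RFX factors bind the X-box, made of 2 half-sites of 6 bases with a spacer of 0 to 3 bases. RefSeq promoter windows (GRCm38.p6, from 250 bases before to 50 bases after the start) were found for 39 of 44 members, 43 windows in all. The full X-box was found in 5 windows (11.6%), compared with 1.56% of 14269 windows of tested genes and 1.53% of all 32851 windows. Its half-site GTTGCC or the reverse complement GGCAAC, searched on both strands and part of many full matches, was found in 18 windows (41.9%), compared with 12.5% of the windows of tested genes and 12.5% of all windows. Median GC content was 60% in members and 60.7% in tested genes. Such matches describe letters and not bound sites.

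The matches upstream of the start are shown for 3 members with a full X-box and for 4 of the members with a half-site only. Arl13b, Bbs7 and Ift27 also had an upstream half-site only and are not shown. The 4 were picked with their values known. They are written 5′ to 3′ on the gene's strand, with the match in capitals.
Ift57 (chr16:49699214-49699266, plus strand): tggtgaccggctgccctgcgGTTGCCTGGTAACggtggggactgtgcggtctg
Tctn2 (chr5:124598667-124598720, plus strand): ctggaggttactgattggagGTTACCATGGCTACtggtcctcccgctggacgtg
Tctn3 (chr19:40612339-40612391, minus strand): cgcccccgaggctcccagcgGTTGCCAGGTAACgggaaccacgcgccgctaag
Ift140 (chr17:25015957-25016002, plus strand): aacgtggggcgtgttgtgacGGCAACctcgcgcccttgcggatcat
Kif3a (chr11:53567251-53567296, plus strand): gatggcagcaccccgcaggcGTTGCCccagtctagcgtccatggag
Mks1 (chr11:87853171-87853214, plus strand): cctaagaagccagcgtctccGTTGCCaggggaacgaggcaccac
Evc (chr5:37337039-37337084, minus strand): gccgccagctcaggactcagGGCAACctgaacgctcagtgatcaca

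The members with a full X-box upstream did not differ significantly between the stages, with log2 fold changes of -0.08 for Ift57, -0.26 for Tctn2 and 0.33 for Tctn3. Bbs1 and Tctn1, whose full match did not lie wholly upstream, were at 0.10 and -0.16. With an upstream half-site only, values were -0.57 for Ift140, -0.33 for Kif3a, -1.06 for Mks1 and -0.88 for Evc. They were 0.09 for Arl13b, -0.05 for Bbs7 and -0.30 for Ift27, and none of these members passed. The window of Kif7, the member that passed, held neither the half-site nor the full motif. The part of the RFX factors in any of these values was not tested.

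Motile cilium genes build the beating cilia of other cell types. Of 14 listed, 8 passed the filter and 2 of those were significantly higher at P0, where 16.0% of all tested genes were higher. Rsph1, a radial spoke protein, had 0, 2, 3 and 0 reads at E12.5 and 31, 23, 52 and 47 reads at P0 (3.32 to 7.13 CPM at P0, adjusted p = 0.0018). The dynein heavy chain Dnah11 had 8.96, 8.39, 1.57 and 1.97 CPM and then 11.3, 9.37, 23.8 and 38.5 CPM (log2 fold change 2.00, SE 0.66, adjusted p = 0.0436), and its call was lost when NPD3, NPD4, NPD9.2, NPD28 or NPD30 was left out (adjusted p 0.0538, 0.0738, 0.109, 0.082 and 0.105).

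Genes of the hedgehog pathway were set beside those that build the cilium. Of 11 hedgehog pathway genes, 8 were significantly lower and 1 was significantly higher at P0, with a median log2 fold change of -2.40. Over all tested genes 12.0% were lower and 16.0% higher. The largest changes were in Hhip (-3.35), Gli2 (-3.26), Gli1 (-3.02) and Ptch1 (-2.77), the first a hedgehog-binding protein, the last the receptor, and all of them passed in all 19 alternative fits. Spop, a ubiquitin ligase adaptor, was the higher one (log2 fold change 0.67, adjusted p = 0.0348) and passed in 7 of 19. Of the members described above by a part in hedgehog signaling, Kif7, Gpr161, Evc and Evc2 had log2 fold changes between -1.22 and -0.68. Among these only Kif7 passed the test. These genes were named with their values known and do not stand for all members that act in hedgehog signaling. The median over all 44 members was -0.19. Tulp3, which brings Gpr161 into the cilium, was at -0.33 and did not pass. Smo and Sufu were both significantly lower (log2 fold change -1.03 each). The values of Kif7, Gpr161, Evc and Evc2 lay nearer to theirs than to those of Hhip, Gli2, Gli1 and Ptch1.

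Genes that take the cilium apart before division were also examined. Of 8 listed, 2 (25%) were significantly lower at P0 and none was higher, while 27.9% of all tested genes changed in either direction and 12.0% were lower. Kif24, a kinesin that trims centriolar microtubules, fell from 19.5 ± 2.46 to 8.34 ± 4.31 CPM (SD, n = 4 each, log2 fold change -1.22, SE 0.36, adjusted p = 0.0276), and Hdac6, a tubulin deacetylase, fell from 35.6 ± 7.11 to 19.0 ± 3.71 CPM (log2 fold change -0.90, SE 0.25, adjusted p = 0.0191). The call of Kif24 was lost without NDP10.2, NPD3, NPD9.2, NPD26 or NPD27 (adjusted p 0.0514, 0.0522, 0.0526, 0.0773 and 0.0725), and that of Hdac6 without NPD9.2 or NPD26 (0.0526 and 0.0574). Of 12 proliferation genes, only Ube2c passed (log2 fold change -0.69, adjusted p = 0.0379), and its call held in 2 of the 8 fits that left out a litter.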

How the data were processed

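The authors aligned single-end reads with STAR 2.4.0j to GRCm38.p3 (mm9 is also listed in the submitters' processing notes) and tallied them per Gencode M4 gene with HTSeq. The deposited values are raw counts per gene and library. Summary rows that name no gene were left out, and 22.6 to 34.8% of tallied reads per library were on genes. Strand setting and handling of multi-mapped reads are not given in the sources used here. Symbols and positions came from Gencode M21 (same build).

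The stages were compared with edgeR 4.0.16 (TMM, minimum count 10, quasi-likelihood F-test, robust, stage only) in 15467 genes, with Benjamini-Hochberg adjustment over all of them. Intervals used the same fit, CPM used TMM library sizes and log2 CPM a prior count of 2. A count of 3 corresponds to 0.337 to 0.675 CPM. The scripts were tested on simulated data. Alternatives used DESeq2 1.42.0, limma 3.58.1, other scalings and filters, and left-out litters. Values were named by rule: for each role, members past or near the threshold and the member highest per kilobase, with the members mentioned beside them chosen after their values were seen. The members and lists were chosen with earlier results of these data known.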

Additional observations from a re-analysis of the deposited data

Results flagged for a closer look

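Of 88 sets of 4 litters (44 members at each stage), 4 held a litter far from the rest by Dixon's test (gap over range above the 95% critical value), and chance alone flags about 1 in 20. At E12.5, Bbs7 was at 3.72 log2 CPM in NPD3, with the others between 3.29 and 3.34, and Evc2 was at 4.89 log2 CPM in NDP10.2, with the others between 4.00 and 4.13. At P0, Ift74 was at 4.86 log2 CPM in NPD30, with the others between 3.95 and 4.09, and Ift172 was at 4.46 log2 CPM in NPD26, with the others between 4.86 and 4.89.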

How the results depend on the processing

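No paired analysis was possible because each stage has its own litters and the labels give litter names with no number that ties an E12.5 litter to a P0 litter. Of 835 values of the members under 19 alternatives, 819 stayed on the same side of the threshold, 7 lost a call, all in Kif7, and 9 gained one, and 36 members were called under none. No called value changed sign, but 76 uncalled values did, in 25 members, 14 of them without the P0 litters NPD26, NPD27 and NPD28. Members lower at P0 numbered 2 with upper quartile scaling and 0 with no filter, without the E12.5 litters NDP10.2 and NPD9.2, or without the P0 litters NPD26, NPD27 and NPD28. Members higher numbered 1 with at least 10 counts in every sample and 1 with DESeq2's Wald test (Kif3b in both). Other cilium genes lower numbered 4 with upper quartile scaling, 4 with DESeq2, and 0 with no filter or without either set of litters. All tested genes called numbered 2581 without the 2 E12.5 litters and 1054 without the 3 P0 litters, where the members' median log2 fold change became 0.20. With 1 litter left out at a time, members lower ranged from 0 to 4, members higher from 0 to 1, other cilium genes lower from 0 to 3, the median from -0.39 to -0.02 and all genes called from 3612 to 4529. Upper quartile scaling moved the median of all genes from 0.04 to -0.11, and that of the members to -0.33, while testing with no filter moved the median of all genes to 0.45 and that of the members to -0.18. The causes were not tested.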
